A study of Drosophila melanogaster with 2 samples.

Results

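The muscle genes examined were Mef2, which encodes the muscle transcription factor MEF2, and 9 genes of the contractile apparatus: Mhc (muscle myosin heavy chain), Act57B and Act88F (muscle actins), Tm1 and Tm2 (tropomyosins), up (troponin T), wupA (troponin I), sls (the titin-like protein Sallimus) and Zasp52 (a Z-disc protein). These 10 of 13945 protein-coding genes were taken by symbol from the gene annotation, and all 10 symbols matched. Binding of CG17829, a zinc finger protein also known as Hinfp, had been measured by chromatin immunoprecipitation and sequencing (ChIP-seq) with an antibody against GFP. The embryos were of both sexes, aged 0 to 24 hours, from 1 transgenic line that stably expresses CG17829 tagged with eGFP at its C terminus. The single group held 2 biological replicates, numbered 2 and 4, and there was no second genotype, age or treatment.

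In muscle, myosin thick filaments slide along actin thin filaments. Tropomyosin and the troponin complex, lying on the thin filament, make this sliding depend on calcium. Titin-like proteins and Z-disc proteins anchor the filaments, and in Drosophila MEF2 switches on many of the genes that encode them once muscle precursors differentiate. Several of these genes have more than 1 start site, and Tm1 is known to make both muscle and non-muscle tropomyosins from separate promoters. Whole embryos mix muscle with every other cell type, so strong binding in few cells and weak binding in many cannot be told apart.

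The measurements are peaks, the places where sequenced fragments piled up, each with a summit (its highest base) and a signal value. The signal is the authors' own value without a stated scale, so it ranks peaks within a list and was not compared between lists. There were 30000 peaks for each replicate and 30000 in a pooled list made from both. A stricter list of 7915 peaks is called IDR after the irreproducible discovery rate, a measure of how peak ranks recur between replicates. Its signals ran from 138 to 5569, with a median of 241. At these genes its peaks had the same ranks as in the pooled list. A place in it therefore does not show that a peak ranked alike in both replicates. The Mef2 peak of rank 7814, for one, ranked 14199 in replicate 2 and 4872 in replicate 4. The depth of the libraries is unknown. With 1 group no test between conditions was possible, so counts are set beside the share of all protein-coding genes that met the same rule.

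At an annotated start site, meaning no more than 250 bp from it, 3 of the 10 carried an IDR summit: Mef2, Tm1 and Zasp52. Over all protein-coding genes the share was 31.7%, so a count of 3 in 10 is near the background and is not a result about these genes. All 3 are at least 20 kb long. Genes of that length had a start summit in 37.2% of cases, against 3 of the 5 long members, and shorter genes in 31.2%, against 0 of the 5 short members. Within the gene body or 5 kb of it, 6 of the 10 had an IDR summit, the 3 above with Act57B, Tm2 and sls, and the share of all genes was 64.9%. Among genes of at least 20 kb it was 76.6%, against 4 of the 5 long members. Mhc, up, wupA and Act88F had no IDR summit in this window.

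The weaker peaks reached more of the genes. In the pooled list 7 of the 10 had a summit at a start site, where 48.9% of all genes did. The replicate 2 list gave 7 of 10, against 49.3% of all genes, and the replicate 4 list 6 of 10, against 48.5%. A summit in the gene body or within 5 kb was found for 9 of 10 in each of these lists, with shares over all genes of 77.8% in the pooled list, 78.0% in replicate 2 and 79.9% in replicate 4. The exception in all lists was Act88F.

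**Figure D1:**
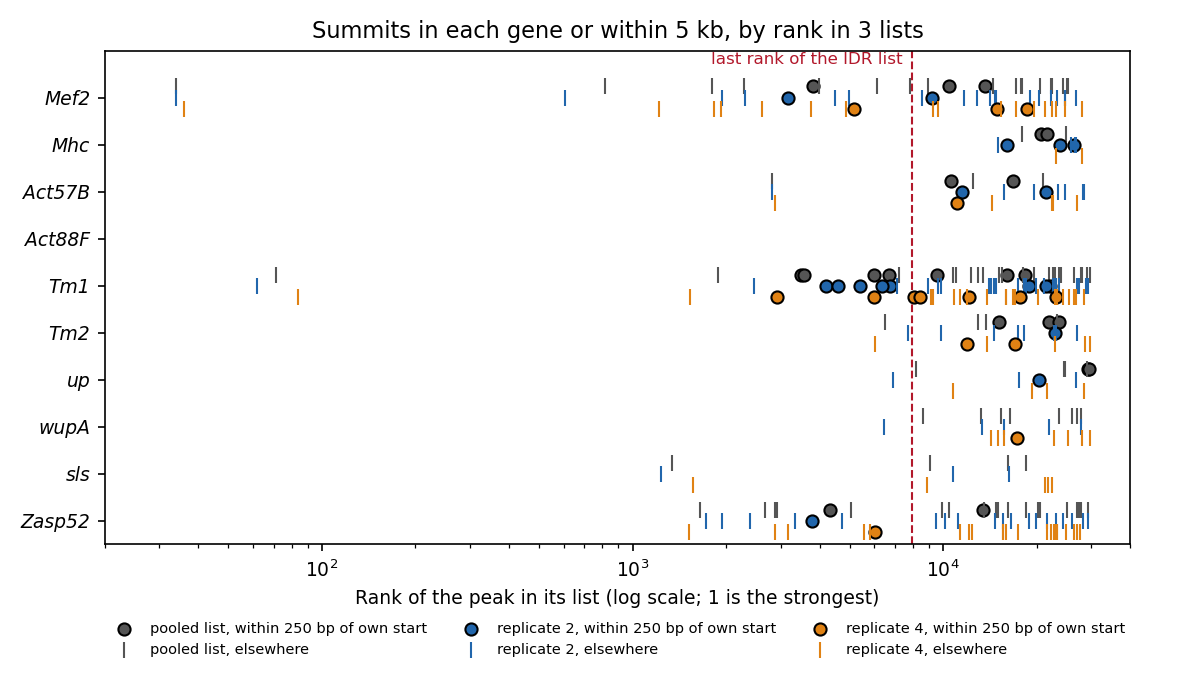
Rank of every peak with its summit in a gene or within 5 kb of it, for the pooled list and the list of each replicate (log scale, strongest to the left). Filled circles are summits within 250 bp of the gene's own start sites, ticks are other summits, and the dashed line marks rank 7915, where the IDR list ends within the pooled list. In the pooled list the circles to the left of the line belong to Mef2, Tm1 and Zasp52, and Act88F has no mark in any list.

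The 10 genes held 24 IDR summits in their bodies or within 5 kb, of which 12 lay in a gene body and 2 of those in an exon. Mef2 held 8 of the summits, Tm1 7 and Zasp52 6. The median was 1 summit per gene, the same as over all protein-coding genes, though the median length was 16.8 kb against 2.17 kb. Per kb of gene and flanks the median in the IDR list was 0.0391, against 0.0823 over all genes. The other lists did not repeat this lower value. The pooled list gave 0.358 against 0.271, replicate 4 gave 0.359 against 0.271, and replicate 2 gave 0.272 against 0.275. Of the 24, 6 lay within 250 bp of a member's own start and 5 others at the start of a different protein-coding gene. The remaining 13 lay more than 250 bp from both, some of them only just. Among these were the sls summit, 276 bp from its start, and a Tm1 summit 316 bp from a start. A Zasp52 summit lay 276 bp from the start of CG33465. Over all 7915 IDR summits, 46.1% lay within 250 bp of a protein-coding start. All 24 overlapped a peak in both replicate lists by at least 1 bp. The IDR list was derived from these lists and the pooled list, so such overlap was favoured in advance. The median summit shift was 8 bp in replicate 2 and 12 bp in replicate 4. The replicate 2 rank was the better one for 15 summits and the replicate 4 rank for 9. The overlaps, shifts and rank split were not computed over all IDR peaks, so they are not a result about these genes.

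Tm1 (FBgn0003721, chromosome 3R, 15278220 to 15308779, dm6, plus strand) had 7 IDR summits, and 5 of its 8 start sites lay within 250 bp of one. Its starts differ in the protein they give. The annotation gives no tissue for a transcript, so starts were told apart by position and by the length of the encoded protein. The start at 15281550 was taken as that of the sarcomeric tropomyosin, because it encodes a form equal in length to the Tm2 protein. It also gives longer forms of up to 711 residues. Just before it lie starts at 15281371 (285 residues) and 15281532 (161 to 518 residues), to which no tissue was assigned. The start at 15288012 gives the 441-residue form from transcripts RC and RI, known as Tm1-I/C, which carries oskar mRNA in the germ line. The starts at 15290944 and 15290946 give short non-muscle forms of 252 and 250 residues. The starts at 15278220 and 15286419 give forms of 282 and 678 residues, to which no tissue was assigned.

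The summits at the Tm1 starts are shown as the summit base with 50 bases on either side, because they let its start sites be compared. They were read from the RefSeq sequence of the same assembly, along the gene, and the capitals mark any motif that was searched. The summit at the 285-residue start (15281371) is chr3R:15281209-15281309, the intron summit before it chr3R:15281005-15281105, the 678-residue start chr3R:15286176-15286276, the Tm1-I/C start chr3R:15287883-15287983 and the non-muscle start chr3R:15290862-15290962, all on the plus strand.
Tm1 285-residue start: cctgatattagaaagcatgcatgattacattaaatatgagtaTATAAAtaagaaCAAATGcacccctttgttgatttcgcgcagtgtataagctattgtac
Tm1 intron before the 285-residue start: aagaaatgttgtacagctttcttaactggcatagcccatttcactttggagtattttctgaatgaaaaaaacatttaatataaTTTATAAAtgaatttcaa
Tm1 678-residue start: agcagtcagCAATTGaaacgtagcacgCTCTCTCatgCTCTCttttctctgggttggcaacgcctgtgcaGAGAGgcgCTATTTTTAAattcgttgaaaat
Tm1-I/C start: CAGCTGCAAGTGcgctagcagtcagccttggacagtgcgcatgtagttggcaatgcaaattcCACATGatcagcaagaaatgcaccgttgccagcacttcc
Tm1 non-muscle start: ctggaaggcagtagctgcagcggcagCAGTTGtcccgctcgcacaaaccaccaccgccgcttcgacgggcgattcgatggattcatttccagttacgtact
The 285-residue start window holds a TATA box and an E-box, and the 678-residue start window holds a MEF2 site, the last run of capitals, in a stretch with repeats of the GAGA element. The Tm1-I/C window has adjoining E-boxes from its first base and 1 more, for 3 in all, and the non-muscle window has a single E-box.

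The start at 15281371, whose transcript RG encodes 285 residues, had an IDR summit 112 bp upstream, at 15281259, with signal 263 and rank 3496. The start of the sarcomeric form at 15281550 was 291 bp from that summit and had no IDR summit within 250 bp. In replicate 2 the nearest summit to it was 296 bp away, and in replicate 4 it was 241 bp away. A stronger peak overlapped this one on the upstream side, with its summit at 15281055, signal 388 and rank 1885, 316 bp before the nearest start. The pair had ranks 4190 and 2457 in replicate 2, and 8069 and 1534 in replicate 4.

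The Tm1-I/C start had a summit 79 bp upstream, at 15287933, with signal 259 and rank 3574. Its matching peaks ranked 4596 in replicate 2 and 2920 in replicate 4. The non-muscle start had a summit at 15290912, 32 bp upstream, with signal 160 and rank 6709, and ranks of 5417 in replicate 2 and 8396 in replicate 4. CG45218 starts 113 bp from this summit, so the peak is shared with it. The 678-residue start had a summit 193 bp upstream with signal 176 and rank 5995 (6377 in replicate 2 and 5987 in replicate 4). The starts of Tm1-I/C, of the short non-muscle forms and of the 285-residue and 678-residue forms thus had an IDR summit within 250 bp. The start of the sarcomeric form and the start at 15281532, which was 273 bp from a summit, did not. This contrast rests on the distance chosen. The sarcomeric start was 291 bp from the summit of rank 3496, so at 500 bp it too had an IDR summit.

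The start at 15278220 had a weak summit 92 bp away in the pooled list (rank 9561), 19 bp from the start of MRG15 and so shared with it, and ranks 6763 in replicate 2 and 17618 in replicate 4. A further IDR summit, at 15292546, lay in an intron 1600 bp past the last start (signal 151, rank 7187). The strongest peak near Tm1 was at the starts of other genes: its summit, rank 71 with signal 1883, lay 2841 bp before the first Tm1 start, 138 bp from the start of Cp190, an insulator protein gene, and within 250 bp of that of CG4338. It ranked 62 in replicate 2 and 84 in replicate 4.

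**Figure D2:**
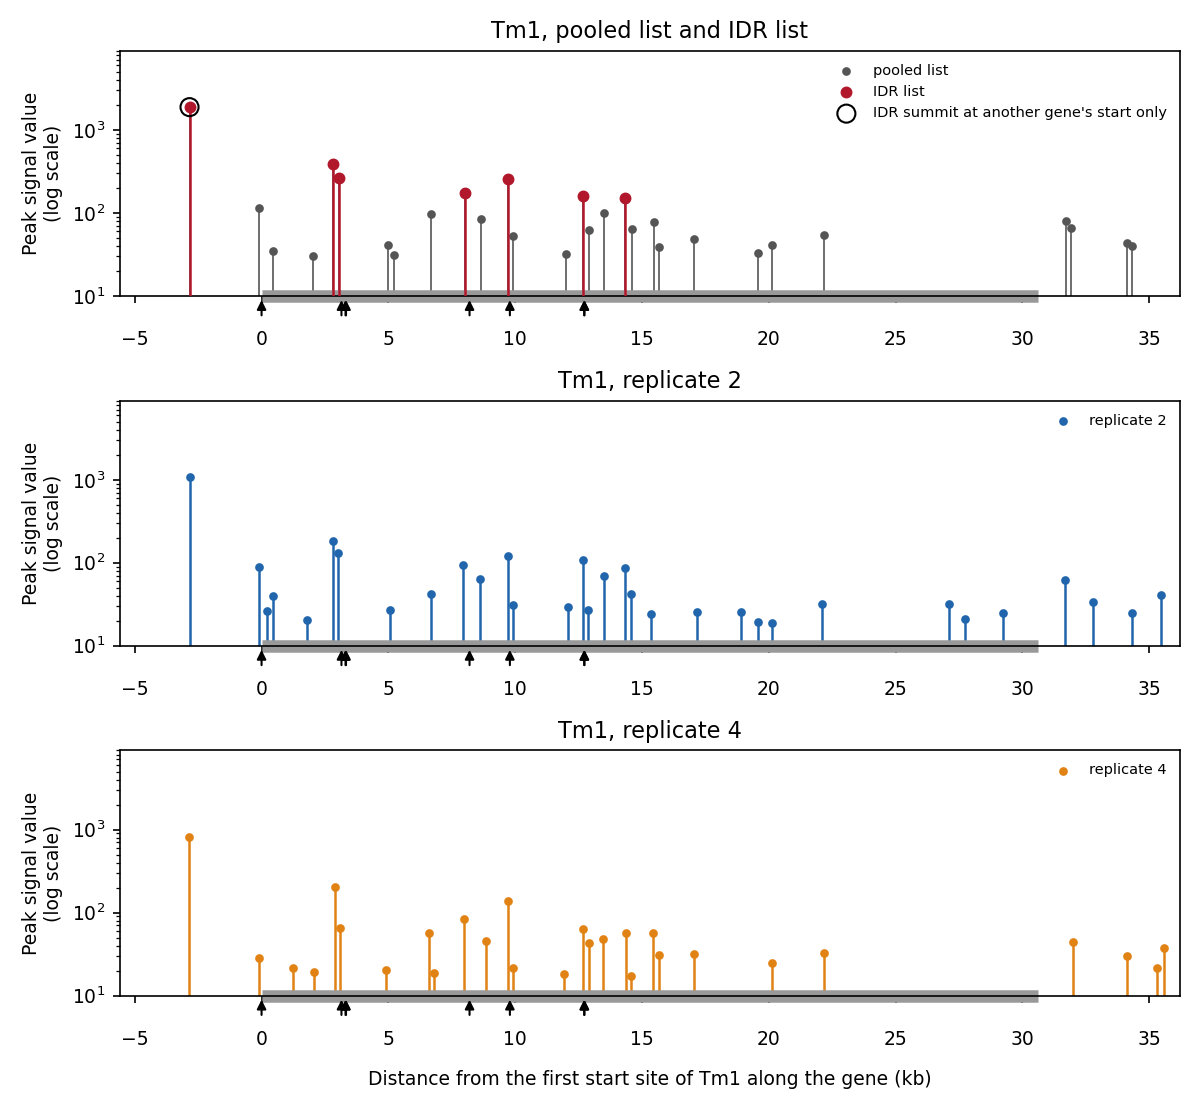
Peak signal value (log scale) against distance from the first Tm1 start along the gene in kb, for the pooled and IDR lists (top), replicate 2 (middle) and replicate 4 (bottom). The grey bar is the gene, arrows are its start sites, and the ringed summit lies at the start of Cp190 and CG4338 only. IDR summits stand at the arrows near 3, 8, 10 and 13 kb.

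Tm2, the neighbouring tropomyosin gene (FBgn0004117, 3R, 15310193 to 15315197), encodes a protein of the same length from all 5 of its starts and had no IDR summit at any of them. In the pooled list its first start had a summit 46 bp away with rank 15159, and its last start one 45 bp away with rank 21870. Replicate 4 had a summit 20 bp from the first start (rank 11934). In replicate 2 the nearest summit to that start was 280 bp away. The IDR summit counted for Tm2 (rank 6518) lay past the end of the gene, 72 bp from the start of CG6276 and within 250 bp of that of CG44040.

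Troponin T, which binds tropomyosin, and troponin I, the inhibitory subunit of troponin, had no IDR summit in their genes or within 5 kb. At up (FBgn0004169, X, 13593474 to 13602578, minus strand), the pooled list had summits 201 and 225 bp from starts, of ranks 29289 and 29573, the weak end of the list. Its strongest nearby pooled peak, rank 8197, lay 3592 bp upstream at the start of CG11178, with rank 6890 in replicate 2 and 10759 in replicate 4. At wupA (FBgn0283471, X, 18105568 to 18116922, minus strand) only replicate 4 had a summit within 250 bp of a start, 201 bp away with rank 17289. The strongest pooled peak near wupA, rank 8616, lay past its end at the start of Mvb12, a gene of membrane protein sorting, and ranked 6435 in replicate 2 and 15056 in replicate 4. From the start that gives 9 of the 13 wupA transcripts, the nearest summit was 621 bp away in replicate 2 and 670 bp in replicate 4.

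The muscle actins differed from each other. Act57B, the main actin of embryonic and larval body wall muscle (FBgn0000044, 2R, 20944021 to 20946431), had no IDR summit at its start, but the pooled list had summits 157 bp before it (rank 10633) and 49 bp after it (rank 16813). The best start summit ranked 11457 in replicate 2 and 11097 in replicate 4, so both replicates had a weak peak there. Its 1 IDR summit lay 4051 bp upstream and 10132 bp from the nearest other protein-coding start (signal 302, rank 2814). It ranked 2810 in replicate 2 and 2876 in replicate 4. Act88F, the actin of the indirect flight muscle (FBgn0000047, 3R, 15439969 to 15442177), had no summit in its body or within 5 kb in the IDR, pooled or replicate lists. The nearest was 5925 bp from its start in replicate 2 and 6524 bp in replicate 4.

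Mhc, the single muscle myosin heavy chain gene (FBgn0264695, 2L, 16766566 to 16788766), had weak peaks in both replicates, with those at its start sites in replicate 2 alone. From the start used by 14 of its 21 transcripts, the nearest pooled summit was 924 bp away, and replicate 2 had a summit 169 bp away with rank 26351. In the pooled list summits lay 119 and 122 bp from downstream starts, of ranks 20620 and 21646. Replicate 2 had 3 summits at starts, the best with rank 16016, and replicate 4 had none, its nearest being 19181 bp away. All Mhc starts in the annotation encode proteins of 1936 to 1962 residues.

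At sls, which encodes Sallimus and the shorter kettin from 1 annotated start (FBgn0086906, 3L, 2039681 to 2115611, minus strand), the IDR summit lay just outside the promoter distance. It was 276 bp upstream of the start at 2115611, with signal 480 and rank 1342, stronger than any summit at a member's own start. The matching peaks ranked 1237 in replicate 2, 260 bp from the start, and 1560 in replicate 4, 281 bp from it. With a distance of 500 bp sls joined the genes with a start summit, making 4 of 10. The share of all genes at 500 bp is not given here. The nearest other protein-coding start was that of zormin, 35813 bp away. Within the 75.9 kb gene body the pooled list had 3 summits, the best of rank 9103, and the IDR list had 0.

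The sls window and, for contrast, the bases directly before the start of Act88F, which has no peak, are given along each gene. The sls window is chr3L:2115837-2115937 on the minus strand and the Act88F stretch chr3R:15439869-15439968 on the plus strand.
sls summit: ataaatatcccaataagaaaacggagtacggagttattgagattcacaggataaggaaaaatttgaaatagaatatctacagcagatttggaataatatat
Act88F upstream: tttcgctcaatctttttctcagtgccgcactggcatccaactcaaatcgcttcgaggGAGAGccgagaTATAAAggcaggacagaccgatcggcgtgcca
The sls window holds none of the motifs searched, and the Act88F stretch holds a GAGA element and a TATA box close to the start.

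Zasp52 (FBgn0265991, 2R, 15762565 to 15817004, minus strand) had 6 IDR summits, 1 of them at a start. The start at 15817004, which gives 2 of its 22 transcripts, had a summit 31 bp upstream with signal 226 and rank 4308, and ranks of 3782 in replicate 2 and 6047 in replicate 4. The start at 15814917, used by 18 transcripts, had its nearest summit 1519 bp away in replicate 2 and 1379 bp in replicate 4. For the start at 15776062 these distances were 4003 and 4011 bp. The strongest Zasp52 peak, signal 419 and rank 1650, lay just past the 3′ end of the gene, with ranks of 1721 in replicate 2 and 1519 in replicate 4. Another (rank 2911) was intronic, 8970 bp before the last start. The summit 4386 bp upstream ranked 2884, but 1934 in replicate 2 and 5578 in replicate 4, and lay 276 bp from the start of CG33465.

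Mef2 (FBgn0011656, 2R, 9913496 to 9958858, minus strand) had 8 IDR summits, of which 5 lay in the gene body. Its starts are far apart. The first, at 9958858, gives 2 of 11 transcripts and had a summit 4 bp away with signal 248 and rank 3805 (3169 in replicate 2 and 5162 in replicate 4). The start at 9929615, which gives 8 of the 11 transcripts, had its nearest IDR summit 6399 bp away. The pooled list had one 37 bp from it with rank 13604, replicate 4 had one at 37 bp with rank 18674, and replicate 2 had none within 250 bp. The start at 9944764 had a pooled summit 136 bp away with rank 10459, which ranked 9233 in replicate 2 and 14881 in replicate 4.

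The strongest peaks inside Mef2 lay between its starts. The summit at 9942976, signal 638 and rank 816, lay in an exon 1788 bp past the start at 9944764, and ranked 608 in replicate 2 and 1219 in replicate 4. Intronic summits had ranks 1800, 2283 and 6127. The one of rank 1800 ranked 1936 in replicate 2 and 1830 in replicate 4. The one of rank 2283 ranked 2307 in replicate 2 and 2607 in replicate 4. The peak of rank 34, signal 2424, had its summit 1051 bp before the first Mef2 start. It lay within 250 bp of starts of Pal1 (169 bp away), which encodes an enzyme of peptide amidation, and of Pdrg1. It ranked 34 in replicate 2 and 36 in replicate 4. At the other end, 2 overlapping peaks of ranks 3986 and 7814 lay at the start of Etf-QO, a mitochondrial electron transfer gene.

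**Figure D3:**
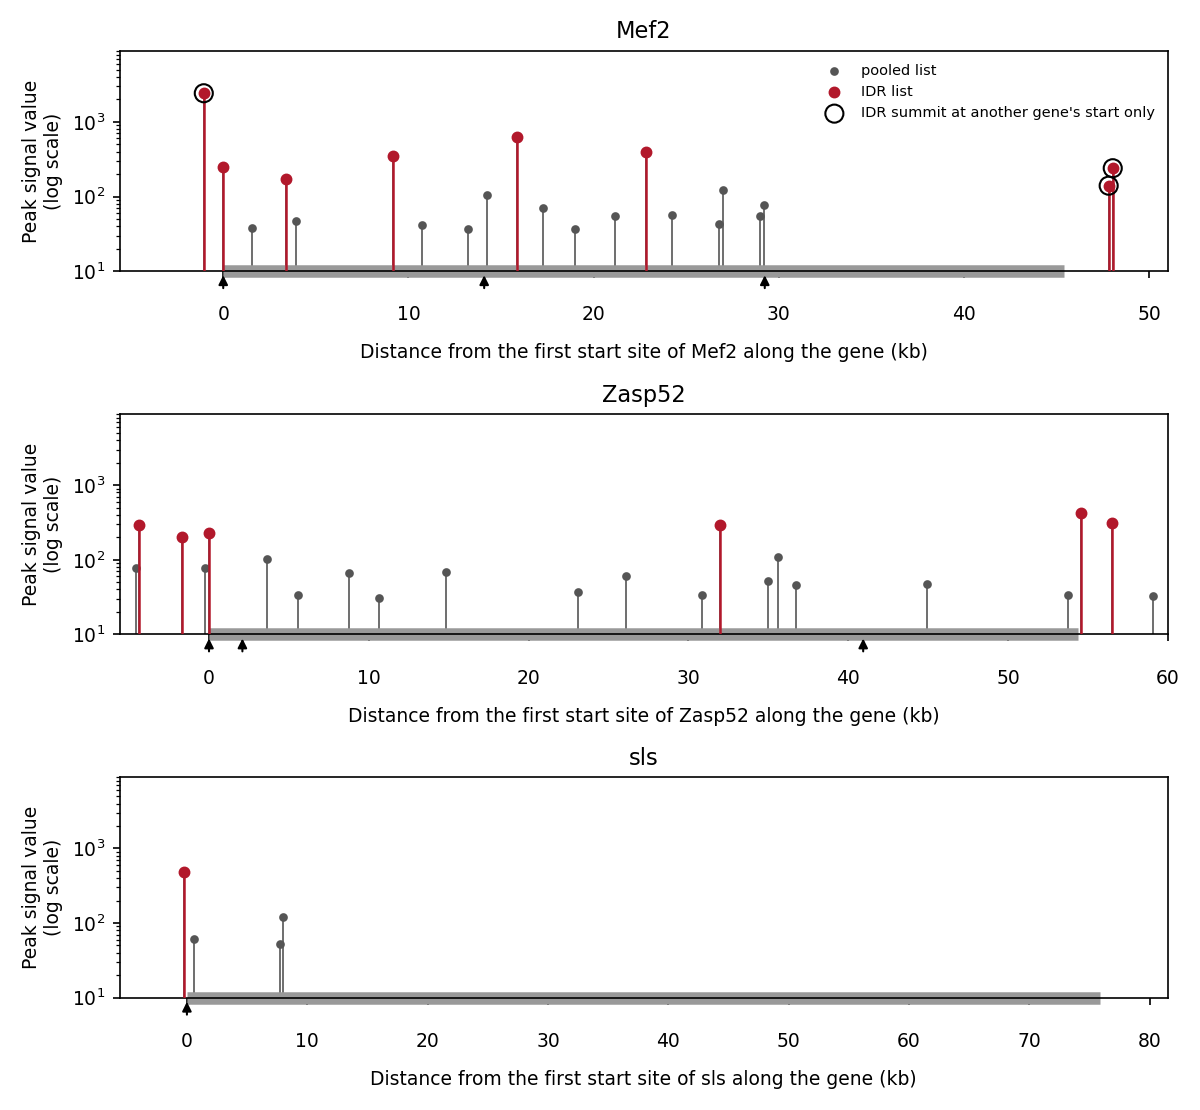
Peak signal value (log scale) against distance from the first start along Mef2, Zasp52 and sls in kb, for the pooled and IDR lists. Grey bars are the genes, arrows their start sites, and rings mark IDR summits that lie at the start of another gene only. In Mef2 the IDR summits inside the gene other than the one at the first arrow stand between or away from the arrows, and in sls the 1 IDR summit stands beside the arrow.

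Start sites taken one by one gave 7 of 36 with an IDR summit within 250 bp, against 27.0% of the 19607 distinct protein-coding starts. These 7 were 5 of Tm1, 1 of Mef2 and 1 of Zasp52. With the 7915 strongest peaks of replicate 4 alone the count was 4, and with those of replicate 2 alone it was 8. In both settings the genes were again Mef2, Tm1 and Zasp52. The 27.0% belongs to the IDR list, and the share of all starts in these settings is not given here.

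Sequence near the summits was searched on both strands for MEF2 sites, E-boxes (CANNTG), GAGA elements (GAGAG), the DNA replication-related element (TATCGATA), the TATA box (TATAAA), a core of the vertebrate HINFP site (CGTCCG) and the Zelda site (CAGGTA). In the bases from 50 before to 50 after each of the 24 IDR summits, 13 windows held an E-box, against 34.2% of all IDR summits. MEF2 sites were in 2, against 7.48%, TATAAA in 7, against 22.5%, and GAGAG in 2, against 10.5%. The replication-related element, the HINFP core and the Zelda site were each in 0 of 24, which allows up to 12.5%. Over all IDR summits the shares were 3.41% for the first, 1.06% for the HINFP core and 2.10% for the Zelda site, so a lower share was not detectable. The median G and C content was 35.6% at these summits and 32.7% at all IDR summits.

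Around the 36 starts, from 250 bases before to 50 after, 18 held GAGAG, against 33.2% of all protein-coding starts, with 5 of the 7 starts that had an IDR summit and 13 of the 29 that had none. TATAAA was in 14, against 42.2%, E-boxes in 27, against 77.9%, and MEF2 sites in 4, against 13.3%. The HINFP core was in 1, against 6.19%, at the Mef2 start at 9929615, which had no IDR summit. The Zelda site was in 1, against 6.40%, at the Zasp52 start at 15817004, which had one. The MEF2 sites were at single starts of Mhc, Act57B, Tm1 and up, and of these starts the 678-residue Tm1 start alone had an IDR summit. TATCGATA was in 0 of 36, which allows up to 8.33%, against 7.99% of all starts. Many of these windows overlap, since starts of 1 gene can lie close together, so the counts are descriptions.

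Related genes were counted by the same rule, in lists written with earlier results of these data known. Of 26 other sarcomere genes, 1 had an IDR summit at a start, against 31.7% of all protein-coding genes: Actn, the Z-disc crosslinker alpha-actinin (rank 3328, shared with usp, and ranks 3584 in replicate 2 and 3676 in replicate 4). The pooled list gave 8 of 26, against 48.9% of all genes. Taking the 7915 strongest peaks of either replicate alone gave 2, a distance of 500 bp gave 5 and 1000 bp gave 8. The share of all genes in these settings is not given here. Within the gene body or 5 kb of it, 15 of the 26 had an IDR summit, against 64.9% of all genes. The genes of the troponin C proteins, the muscle myosin light chains Mlc1 and Mlc2, and paramyosin (Prm) were among those with no IDR summit at a start.

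Non-muscle relatives of the members stood at 7 of 8, against 31.7% of all protein-coding genes. With the strongest 50% of the IDR list the count was 1 of 8, a setting for which the share of all genes is not given here. The strongest was sqh, the regulatory light chain of non-muscle myosin (rank 1358, with 1386 in replicate 2 and 1341 in replicate 4). The others were tsr, the actin-severing protein cofilin (rank 4605), the cytoplasmic actin genes Act5C (4974) and Act42A (5854), zip, the non-muscle myosin heavy chain (6059), chic, the actin-binding protein profilin (6237), and Mlc-c, a myosin light chain (6386, shared with Pop1). Cam, the calmodulin gene, had a start summit in replicate 4 only. Act42A ranked 4240 in replicate 2 and 10956 in replicate 4. Within the actin family both cytoplasmic genes thus had an IDR summit at a start, and Act57B, Act88F, Act79B and Act87E did not. Of the last 4, Act57B and Act87E had a start summit in the pooled list and in both replicate lists.
The sqh summit window, the strongest start summit among these relatives, is chrX:6224336-6224436 on the minus strand, read along the gene.
sqh summit: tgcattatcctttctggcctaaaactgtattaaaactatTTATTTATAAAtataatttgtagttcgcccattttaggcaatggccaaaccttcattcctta
Its run of capitals is a MEF2 site that overlaps TATAAA.

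Other lists covered muscle specification, fusion and attachment, with 31.7% of all protein-coding genes again the background. Of 25 mesoderm and myogenic regulators 11 had an IDR summit at a start, led by tin, the heart and mesoderm homeobox gene (rank 242, 221 in replicate 2 and 280 in replicate 4), then ap (3794) and Six4 (4652). The myoblast fusion list had 6 of 13, led by mbc, an activator of Rac (rank 878, shared with Nup98-96). Next were WASp, an activator of actin branching (1822), and sltr (Vrp1 in the annotation), its partner (3027, shared with mei-S332). The muscle attachment list had 9 of 14, led by rhea, the talin gene (3363), mys, the beta integrin (4035, shared with fs(1)h), and LanB2, a laminin chain (4993). With the strongest 50% of the IDR list the counts were 2 of 25 regulators, 4 of 13 fusion genes and 1 of 14 attachment genes. The 31.7% belongs to the full IDR list, and the share of all genes for the shorter list is not given here. In the pooled list they were 22 of 25 regulators, 13 of 13 fusion genes and 13 of 14 attachment genes, against 48.9% of all genes. No test of the lists against each other was made.

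**Figure D4:**
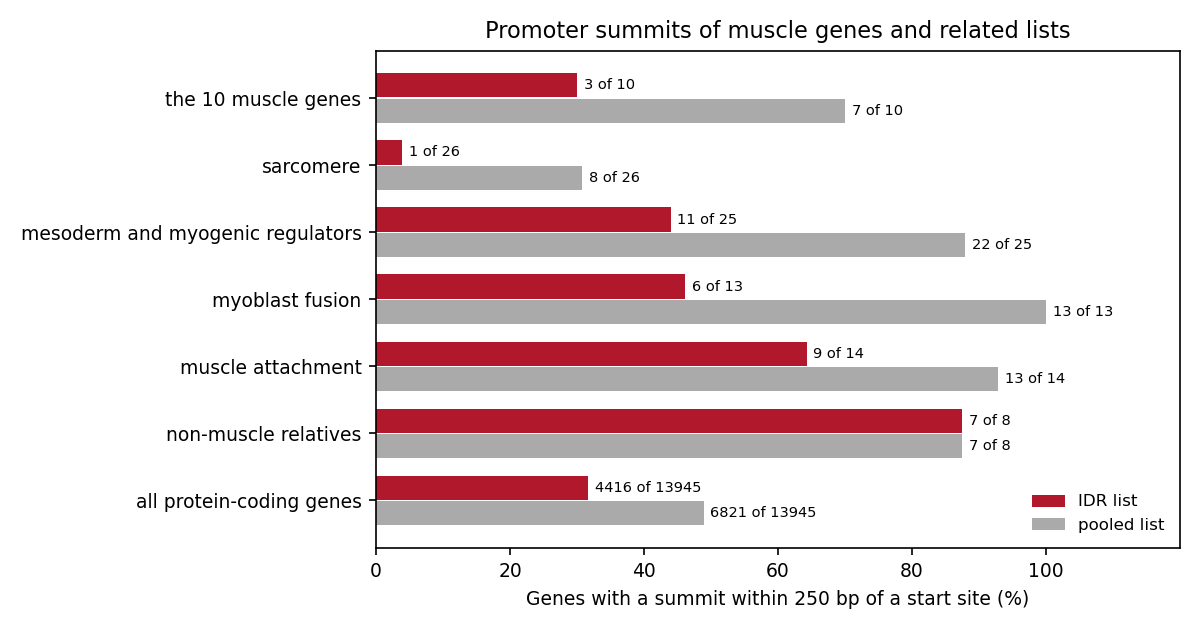
Share of genes with a summit within 250 bp of a start site (%), in the IDR and pooled lists, for the 10 muscle genes, the 5 related lists and all protein-coding genes, with counts beside the bars. In the IDR list the bars are 3 of 10 for the muscle genes, 1 of 26 for other sarcomere genes, 7 of 8 for non-muscle relatives and 4416 of 13945 for all genes.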

How the data were processed

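ChIP-seq peak lists from 2 biological replicates of 1 group were analysed, in dm6 coordinates per the deposited provenance notes. By those notes, the authors derived each replicate list from 1 read alignment and 1 control, the pooled list from both alignments and a control, and the IDR list from these. The aligner and the caller: not given in the sources used here. Depth is unknown. The authors' signal value has no stated scale and ranked the peaks of each list. Values of −log10 q, also deposited, were inspected without further use. Peak starts, ends and summit offsets are the other deposited values.

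Genes, transcripts and coding lengths came from Ensembl release 115 (transposons left out), and sequence from RefSeq of the same assembly. Positions count from 1. Summits were assigned to starts within 250 bp and to genes within 5 kb, and peaks matched at 1 bp of overlap, which was checked on planted summits. Distances, flanks, list strength and replicates were varied. Python 3.11.15, numpy 2.4.6, pandas 2.3.3 and matplotlib 3.10.9 were used. Nothing states more about the replicates than separate biosamples. The members and lists were chosen with earlier results of these data known. The rule named all 10 members, the 3 genes of each related list with the strongest start summits, every non-muscle relative, and neighbours that share a summit. Act79B, Act87E, Mlc1, Mlc2, Prm and the troponin C genes were named after their values were seen. Of the listed genes, Unc-89 is Obsc in the annotation.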

Additional observations from a re-analysis of the deposited data

How the results depend on the processing

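Of 68 alternative counts, 47 stayed within 1.5 times the main count and 21 moved further. Apart from the pooled list, the share of all genes under these settings is not given, so the counts are set against the main count only. With the pooled list, 7 genes in place of 3 had a start summit, 18 start sites in place of 7, and 102 summits in place of 24 lay in the genes or within 5 kb. In the same list the related counts were 8 sarcomere genes, 22 regulators and 13 fusion genes. With the strongest 50% of the IDR list there were 3 start sites, 15 summits, 2 regulators, 1 attachment gene and 1 non-muscle relative. Without the 5 kb flanks, 3 genes and 12 summits were left, and with 1 kb flanks 15 summits. At a start distance of 100 bp the counts were 0 sarcomere genes and 6 regulators, and sarcomere genes numbered 5 at 500 bp and 8 at 1000 bp. Leaving out a replicate gave 4 to 8 start sites and 2 sarcomere genes either way, and Mef2, Tm1 and Zasp52 kept their start summits in both cases. Leaving out summits at another gene's start, or merging overlapping peaks, was added after the data were seen and gave 18 and 22 summits. No paired analysis was possible because there is 1 group. The unknown depth limits what an absent peak can show.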
